A study of Caenorhabditis elegans with 2 samples.

Results

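Basic helix-loop-helix (bHLH) factor genes were examined as possible targets of the worm corepressor protein RCOR-1. The set was every protein-coding gene with a symbol of the form hlh- plus a number (25 genes) and 15 further genes listed by name, which gave 40 of the 19973 nuclear protein-coding genes of the annotation. By the type of protein they encode, 5 were of the Myc-Max type, 3 were other leucine zipper factors, 5 were of the PAS type, 7 were proneural, 7 were of the Hes and REF-1 type and 13 were of other types. The data were ChIP-seq peak lists from 2 biological replicates of whole Caenorhabditis elegans, collected as young adults (65 hours) from cultures begun with starved L1 larvae. All animals were of strain RW12222, in which CRISPR placed TY1, EGFP and 3xFLAG tags at the rcor-1 locus, and chromatin was taken with an antibody to GFP. Both samples form a single group, and a control experiment that the labels name was not analysed here. Whole animals were used, so a site bound in few cells and a site bound weakly in many cannot be told apart.

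Proteins of the bHLH family bind DNA as dimers through a basic stretch, and the helix-loop-helix joins the partners. Most recognise E-boxes, written CANNTG. Myc-Max type factors carry a leucine zipper and prefer CACGTG. PAS type factors pair with the common partner AHA-1 and sense oxygen, small molecules or activity. Proneural type factors pair with HLH-2, and many of them specify neurons. RCOR-1 belongs to the CoREST family, which in animals joins histone deacetylases with LSD1-type demethylases and keeps neuronal genes silent in other mammalian tissues.

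A conservative peak lay within 500 bp of an annotated 5' end at 3 of the 40 genes (7.5%, 95% Wilson interval 2.58 to 19.9%): mdl-1, hlh-30 and hlh-11. Across all nuclear protein-coding genes the share was 7.05%, so the bHLH share was near the background. All 3 encode leucine zipper members of the family. MDL-1 is the worm Mad-like repressor, HLH-30 is the TFEB homologue that controls autophagy and lysosome genes, and HLH-11 is the homologue of the mammalian factor AP-4. The regions deposited for these 3 genes are shown because they are the sites of the family past the threshold. They are printed on the strand of the gene, 5' to 3', from the ce11 genome (RefSeq), with E-boxes of the form CANNTG in capitals.
mdl-1, chrX:6742204-6742483, plus strand: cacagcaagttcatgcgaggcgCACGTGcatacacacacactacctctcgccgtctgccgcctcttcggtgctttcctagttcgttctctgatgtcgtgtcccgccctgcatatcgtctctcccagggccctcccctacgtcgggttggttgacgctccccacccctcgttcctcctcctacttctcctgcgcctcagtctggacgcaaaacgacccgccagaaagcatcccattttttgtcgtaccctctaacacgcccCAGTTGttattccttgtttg
hlh-30, chrIV:4028183-4028462, minus strand: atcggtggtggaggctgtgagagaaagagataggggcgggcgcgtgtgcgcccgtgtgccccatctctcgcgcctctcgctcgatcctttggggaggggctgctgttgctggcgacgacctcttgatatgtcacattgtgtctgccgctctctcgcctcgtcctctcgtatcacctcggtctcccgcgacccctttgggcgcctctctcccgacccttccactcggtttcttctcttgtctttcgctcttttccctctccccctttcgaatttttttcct
hlh-11, chrIII:9619465-9619744, plus strand: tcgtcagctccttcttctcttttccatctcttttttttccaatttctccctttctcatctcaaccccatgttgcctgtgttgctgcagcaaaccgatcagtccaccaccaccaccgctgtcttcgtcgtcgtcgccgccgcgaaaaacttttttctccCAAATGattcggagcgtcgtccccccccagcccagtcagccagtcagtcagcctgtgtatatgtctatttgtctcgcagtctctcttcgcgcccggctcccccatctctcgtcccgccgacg

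The mdl-1 region held 2 E-boxes, CACGTG and CAGTTG, and CACGTG is the form that Myc-Max type factors prefer. CACGTG began 118 bp before the summit of the list made between replicates, and stood at -111 bp from the summit of replicate 2 and at -16 bp from that of replicate 1. In windows of 280 bp around the summit, CACGTG was present in 7.14% of the 2324 nuclear conservative peaks, and in 6.33% of the other candidate regions. The hlh-11 region held a single E-box, CAAATG, and the hlh-30 region held none. E-boxes of any kind were present in 64.0% of conservative peaks and in 68.8% of the other candidate regions. The hlh-30 region held CACGCG, a site of Hes type factors present in 13.2% of conservative peaks. GCGTG, the core of xenobiotic response elements and a part of CACGCG read on the other strand, was in the hlh-30 and mdl-1 regions and in 36.7% of conservative peaks. All 3 regions were rich in G and C, with 55.0% in hlh-11, 57.5% in mdl-1 and 59.6% in hlh-30. The median of the conservative peaks was 41.1%, and 87 of 2324 (3.74%) reached 55.0% or more, a cutoff set by the lowest of these 3 regions. Among the strongest candidates of bHLH genes without a peak, that of cky-1 had 57.5%, and the others had 47.9% or less. Motif matches and base composition are descriptions of these windows.

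The mdl-1 peak was found in both replicates. Its deposited signal was 101 in the list made between replicates, 50.2 in replicate 1 and 62.5 in replicate 2. The signal is the authors' own measure of peak strength, its scale differs between lists, and it was therefore also read as a percentile among all candidate regions of a list. The percentile at mdl-1 was 97.8 in replicate 1, 97.4 in replicate 2 and 97.8 between replicates. The irreproducible discovery rate (IDR) estimates how often a region of that rank or better fails to recur between replicates or other paired rankings, and 0.01 was the authors' threshold. At mdl-1 it was 6.35e-05 between replicates, 0.000192 in replicate 1 and 0.000899 in replicate 2. Both replicates thus placed the site high in their lists, but the summits were 95 bp apart. The site was taken as a peak from these same replicates, so its high percentile is no separate support. The median signal of the nuclear conservative peaks was 90.2. The 101 of mdl-1 was a little above it, and the signals of hlh-30 (74.6) and hlh-11 (69.7) were below it. The summit lay at -109 bp from the 5' end in replicate 1, at -14 bp in replicate 2 and at -7 bp between replicates, in intergenic sequence. No other protein-coding 5' end lay within 500 bp of it. The thresholded list of replicate 1 held a peak at 1 of the 40 genes, mdl-1, beside 5.00% of all genes. That of replicate 2 held peaks at 2 of the 40, mdl-1 and hlh-11, beside 4.73% of all genes.

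The hlh-30 peak lay in an intron of that gene, 196 bp upstream of an internal 5' end and 6628 bp downstream of the outermost one. The gene spans 20159 bp and has 10 annotated 5' ends. Its signal was 27.9 in replicate 1, 39.8 in replicate 2 and 74.6 between replicates, and the percentiles were 93.0, 93.8 and 96.3 in the same lists. The summits of both replicates were 8 bp apart. The IDR was 0.0265 in replicate 1 and 0.0300 in replicate 2, so the site missed the threshold in each replicate alone, and it was 0.00305 between replicates. A further intronic peak of hlh-30, 10635 bp downstream of the outermost 5' end and outside the 500 bp windows, had a signal of 72.5 between replicates. This further peak was in neither replicate's own thresholded list, with an IDR of 0.146 in replicate 1 and 0.0250 in replicate 2.

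The hlh-11 peak lay in intergenic sequence 106 bp upstream of the gene, which has 6 annotated 5' ends. The signal was 22.7 in replicate 1, 49.3 in replicate 2 and 69.7 between replicates. Replicate 2 ranked the site higher, with a percentile of 95.9 in replicate 2 and 88.0 in replicate 1. The IDR was 0.241 in replicate 1, 0.00463 in replicate 2 and 0.00855 between replicates, close to the threshold, so replicate 2 alone carried a peak. Replicate 2 also listed a region at -500 bp, slightly stronger than its region at this peak. That region had a signal of 49.9, a percentile of 96.0 and an IDR of 0.00391. Regions of the ranked list between replicates with an IDR of 0.001 or less were also read. Their summits lay within 500 bp of a 5' end at 1 of the 40 genes, mdl-1, and at 4.68% of all genes.

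**Figure D1:**
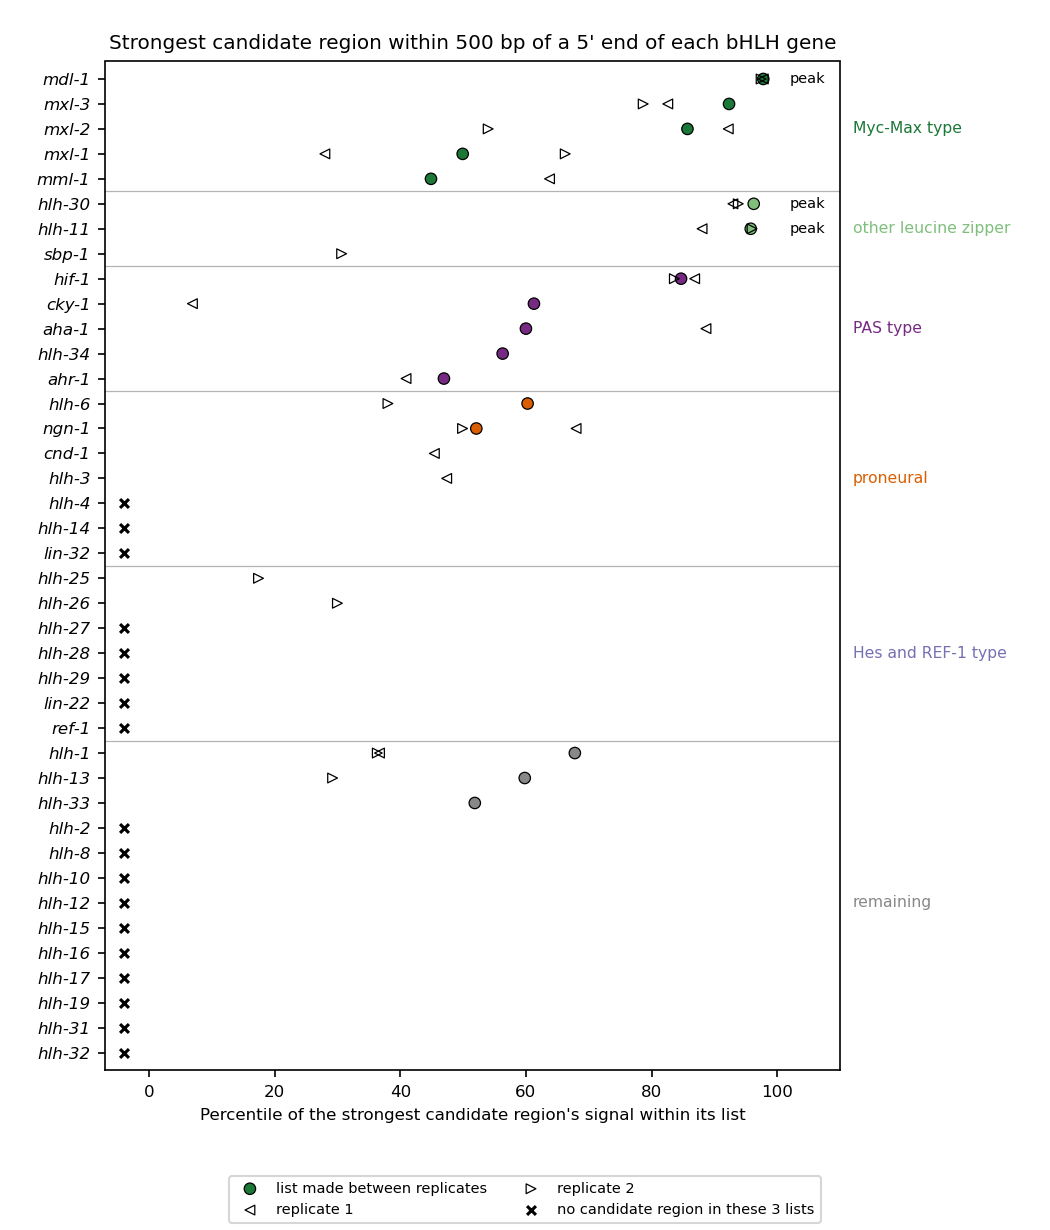
Percentile of the strongest candidate region within 500 bp of a 5' end, for each of the 40 genes by class, in the ranked list made between replicates (circles) and in the ranked list of each replicate (triangles); crosses mark genes with no candidate in these 3 lists. The symbols of mdl-1 lie together near 97.8, while those of mxl-1, mxl-2, aha-1 and cky-1 lie far apart, and the strongest region of a gene need not be the same in each list.

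The ranked lists hold strong and weak regions alike, and candidates in them include the 3 peaks. A candidate summit between replicates lay within 500 bp of a 5' end at 17 of the 40 genes (42.5%, Wilson interval 28.5 to 57.8%), against 44.8% of all genes. Of those 17, 3 (17.6%) carried a conservative peak, against 15.7% of all genes with a candidate. By class, a candidate was present at 5 of 5 Myc-Max type genes, 2 of 3 other leucine zipper genes and 5 of 5 PAS type genes. It was present at 2 of 7 proneural genes, 0 of 7 Hes and REF-1 type genes and 3 of 13 other genes. Leucine zipper and PAS type genes, pooled after these counts were seen, gave 12 of 13 and all other members 5 of 27. In the ranked list of replicate 1 these counts were 11 of 13 and 4 of 27, beside 43.4% of all genes. In that of replicate 2 they were 8 of 13 and 6 of 27, beside 39.0% of all genes. A candidate in both replicates was present at 7 of 13 and 2 of 27, beside 27.6% of all genes, and in any of the 4 ranked lists at 13 of 13 and 9 of 27, beside 61.4%. At the outermost 5' end alone these counts were 10 of 13 and 4 of 27, beside 41.4% of all genes. Within 200 bp they were 7 of 13 and 4 of 27, beside 27% of all genes. All of these recounts came from the same 2 replicates that gave the split, so none is independent of it. The number of annotated 5' ends differed between the classes, with up to 10 in the other leucine zipper genes and 1 in each Hes and REF-1 type gene, and its part in the counts was not tested. Some of the candidates counted between replicates had a poor IDR. It was 0.838 at ahr-1, cky-1, hlh-34 and mml-1 in the pooled group, and at hlh-6 and hlh-13 among the other members. No test was made between classes of this size, whose members are not replicates. Candidates in the ranked lists of both replicates were present at 9 of the 40 genes (22.5%), against 27.6% of all genes, and 4 of these 9 were of the Myc-Max type.

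**Figure D2:**
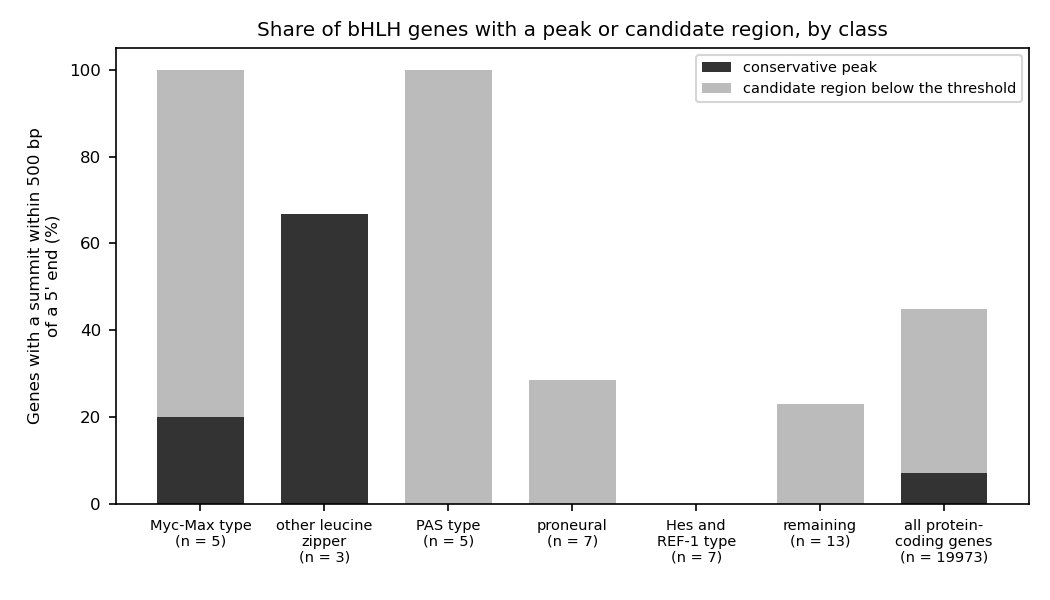
Percent of the genes of each class with a conservative peak (dark) or only a candidate region (grey) whose summit lay within 500 bp of a 5' end, beside all 19973 nuclear protein-coding genes. Every Myc-Max type and PAS type gene had a candidate, no Hes and REF-1 type gene had one, and all genes reached 44.8%.

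Among genes with a candidate, the strongest one had a median percentile of 60.3 at the 17 bHLH genes and 71.7 at all 8951 genes. In replicate 1 these medians were 68.0 over 15 bHLH genes and 67.1 over all genes, and in replicate 2 they were 52.0 over 14 bHLH genes and 66.7 over all genes. In the other ranked list of the series they were 64.6 over 14 bHLH genes and 71.9 over all genes. The bHLH median was therefore the lower one in every list except that of replicate 1. All of these lists came from the same 2 replicates, and the difference was not tested.

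Within the Myc-Max network, MDL-1 pairs with the Max-like protein MXL-1, and the Myc and Mondo-like protein MML-1 pairs with MXL-2. MXL-3 is a further Max-like protein, known in worms to repress lysosomal lipase genes when food is present. Next after the 3 peaks, the strongest candidate of the family was at mxl-3, with a signal of 51.1 and an IDR of 0.0751 between replicates. Its percentile was 92.3 between replicates, 82.6 in replicate 1 and 78.7 in replicate 2. The mxl-3 summit lay 118 bp downstream of the 5' end in an intron and differed by 18 bp between replicates. The start of a noncoding transcript, C49F8.5, lay in the same window.

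The candidate of mxl-2 lay at -250 bp, also within 500 bp of a 5' end of ubc-20, with a percentile of 85.7 between replicates. Replicate 1 ranked it at 92.2 and replicate 2 at 54.0. The partner gene mml-1 had a weaker candidate at -371 bp, at the percentile of 44.9 between replicates and 63.8 in replicate 1. No region of the ranked list of replicate 2 overlapped it. The IDR of this candidate was 0.838 between replicates, and ranked by IDR it had a percentile of 21.7. At mxl-1 the candidate at -59 bp had a percentile of 49.9, and the strongest regions of the replicates lay 229 bp apart, with percentiles of 28.0 in replicate 1 and 66.3 in replicate 2. Within the Max network, mdl-1 was the only gene past the threshold, and the genes of its partner and of the Mondo pair were not.

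The third leucine zipper gene outside the Max network is sbp-1, which encodes the SREBP homologue that drives fatty acid synthesis. It had no candidate between replicates or in replicate 1. Replicate 2 listed one at -154 bp with a percentile of 30.7.

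Among the PAS type genes, hif-1 encodes the oxygen-regulated hypoxia-inducible factor and aha-1 its partner, the ARNT homologue. With 4 annotated 5' ends, hif-1 had 5 candidates in the windows, and the strongest lay 1 bp downstream of an internal 5' end with a signal of 39.9, a percentile of 84.7 and an IDR of 0.297. A further candidate, at -141 bp from another internal 5' end, had almost the same signal (39.9, percentile 84.7). The replicates favoured different ones: the strongest region of replicate 1 overlapped the candidate at -141 bp (percentile 86.9), and that of replicate 2 overlapped the one at 1 bp (percentile 83.6).

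At aha-1 the candidate at -259 bp was strong in replicate 1, with a percentile of 88.7, and had no overlapping region in the ranked list of replicate 2. Between replicates it had a percentile of 60.0, and a 5' end of C25A1.15 lay in the same window. The candidate of ahr-1, the aryl hydrocarbon receptor gene, lay at -314 bp from an internal 5' end with percentiles of 47.0 between replicates and 40.9 in replicate 1. The NPAS4-like gene cky-1 had one at -68 bp, at the percentile of 61.3 between replicates and 6.91 in replicate 1. The bHLH-PAS gene hlh-34 had one at -327 bp, inside an intron of T01D3.3, at the percentile of 56.3 between replicates and with no overlapping region in either replicate's own list. Replicate 2 listed no region at ahr-1 or cky-1. Between replicates the IDR was 0.838 at ahr-1, cky-1 and hlh-34, and 0.649 at aha-1. Ranked by IDR rather than by signal, ahr-1, cky-1 and hlh-34 each had a percentile of 21.7. So all 5 PAS type genes had a candidate between replicates, and 1 of 5, hif-1, had one in both replicates' own lists.

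The proneural class was set by family. The genes hlh-3, hlh-4, hlh-6 and hlh-14 are of the achaete-scute type and lin-32 is the atonal homologue. The gene cnd-1 is of the NeuroD type and ngn-1 is the neurogenin. Many factors of these families start neuron formation, but not every member need act in neurons. None of the 7 carried a peak in any of the 4 thresholded lists. The ngn-1 candidate at -443 bp had a percentile of 52.1 between replicates, 68.0 in replicate 1 and 49.9 in replicate 2, with summits 194 bp apart. The hlh-6 candidate at 89 bp downstream, in a coding exon, had a percentile of 60.3 between replicates and 38.0 in replicate 2. Its IDR between replicates was 0.838, and ranked by IDR it had a percentile of 21.7. Replicate 1 alone listed regions at hlh-3 (-467 bp, percentile 47.4) and at cnd-1 (-417 bp, percentile 45.4). The genes hlh-4, hlh-14 and lin-32 had no candidate within 500 bp in any of the 4 ranked lists.

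The Hes and REF-1 type genes include lin-22, the hairy homologue that keeps epidermal cells from becoming neuroblasts, and ref-1, a Notch-responsive repressor gene of the early embryo. None of the 7 had a candidate between replicates. Replicate 2 alone among the replicates listed weak ones at hlh-25 (-337 bp, percentile 17.4) and hlh-26 (-304 bp, percentile 30). The other ranked list of the series also held one at hlh-26 (-312 bp, percentile 36.5, IDR 0.844). The genes hlh-28 and hlh-29 are near-identical inverted copies on the X chromosome, with 1144 of 1148 bases the same, and 298 of 300 in the promoters. Reads cannot be told apart over most of such copies, and how the authors treated reads with several matches is not given in the sources used here.

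Of the 13 other genes, hlh-1, the MyoD homologue of body wall muscle, had a candidate at 158 bp downstream in a coding exon, with a percentile of 67.8 between replicates. Replicate 1 ranked it at 36.7 and replicate 2 at 36.3. The candidate of hlh-13 lay at 169 bp downstream, with percentiles of 59.8 between replicates and 29.2 in replicate 2. Its IDR between replicates was 0.838, and ranked by IDR it had a percentile of 21.7. The hlh-33 candidate lay at 31 bp downstream with a percentile of 51.9 and no overlapping region in either replicate's list. All 3 lay in coding exons. The common partner gene hlh-2, the Twist gene hlh-8 and hlh-10, hlh-12, hlh-15, hlh-16, hlh-17, hlh-19, hlh-31 and hlh-32 had no candidate in any of the 4 ranked lists. In all, 18 of the 40 genes had none. The other 22 (55.0%) compare with 61.4% of all genes that had a candidate in at least 1 of the 4 lists. A ranked list shows only regions above its own lowest signal, so this does not show that RCOR-1 was absent there.

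**Figure D3:**
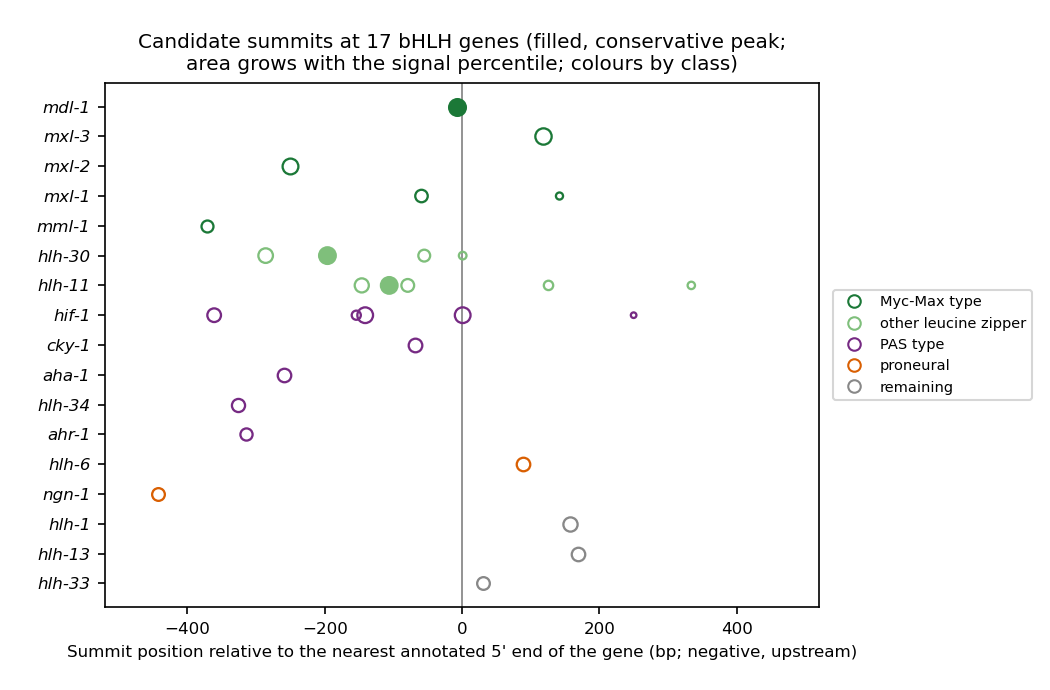
Summit positions of all candidate regions between replicates at the 17 bHLH genes that had one, relative to the nearest annotated 5' end of the gene in bp; filled symbols are conservative peaks and the area grows with the percentile. The peaks lie at -7 bp (mdl-1), -106 bp (hlh-11) and -196 bp (hlh-30), and other candidates lie on both sides, such as aha-1 at -259 bp and mxl-2 at -250 bp upstream, and mxl-3 at 118 bp and hlh-1 at 158 bp downstream.

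Peaks farther from the 5' end were then read over each gene body and 5 kb upstream of its outermost 5' end, a window and a set of sites chosen after the values were seen. A conservative peak lay in this stretch at 8 of the 40 genes (mdl-1, hlh-11, hlh-30, mxl-1, hif-1, hlh-6, hlh-13 and hlh-27), against 18% of all genes. Some of these sites were stronger than those at the 5' ends. At -2590 bp from hlh-11, in intergenic sequence, a peak had signals of 142 in replicate 1, 208 in replicate 2 and 357 between replicates, with percentiles of 99.8 in all 3 lists. Its nearest 5' end was that of hcp-3, the gene of the centromeric histone CENP-A, from which it lay at -651 bp. The peak at -1965 bp from hif-1, which was also the nearest protein-coding gene, had a signal of 123 between replicates, and replicate values of 54.4 (replicate 1) and 64.6 (replicate 2). Its percentiles were 98.5 between replicates, 98.2 in replicate 1 and 97.6 in replicate 2, above the 84.7 of the strongest hif-1 candidate at a 5' end. Both hif-1 values exceeded those of the mdl-1 peak. At -3355 bp from hlh-27 a peak had signals of 68.6 in replicate 1, 136 in replicate 2 and 215 between replicates, and its nearest 5' end was that of the insulin-like gene ins-13, from which it lay 1296 bp downstream. All 3 were in the thresholded lists of both replicates.

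Sequences of the hif-1 and hlh-11 upstream peaks are shown because their signals exceeded those of the 5' end sites of the same genes. Capitals mark E-boxes as above, and the strand is that of the gene.
hif-1 upstream peak, chrV:20778302-20778581, plus strand: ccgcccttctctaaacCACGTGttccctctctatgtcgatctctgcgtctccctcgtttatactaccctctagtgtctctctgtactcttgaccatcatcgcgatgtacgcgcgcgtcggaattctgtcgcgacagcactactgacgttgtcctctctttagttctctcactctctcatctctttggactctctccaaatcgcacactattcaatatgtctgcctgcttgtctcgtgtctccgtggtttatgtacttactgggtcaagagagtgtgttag
hlh-11 upstream peak, chrIII:9617047-9617213, plus strand: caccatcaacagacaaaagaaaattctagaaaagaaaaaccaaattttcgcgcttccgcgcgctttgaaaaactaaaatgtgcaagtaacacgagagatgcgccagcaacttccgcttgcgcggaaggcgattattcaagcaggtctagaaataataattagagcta

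The hif-1 upstream peak held 1 E-box, CACGTG, which began 124 bp before the summit. That hexamer contains ACGTG, the core of the hypoxia response element bound by HIF-1 and AHA-1 dimers, which was present in 27% of conservative peak windows and in 26.2% of the other candidate windows. The hif-1 upstream peak also held CACNAG, a site form of Hes type factors, at -71 bp (CTAGTG) and 91 bp (CTCGTG) from the summit. CACNAG was present in 31.5% of conservative peak windows and in 30.3% of the other candidate windows. The hlh-11 upstream peak held no E-box in its 167 bp, and held CACNAG as CACGAG at 15 bp from the summit.

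The other sites within 5 kb were weaker. At hlh-6 the strongest of 3 peaks, at -3196 bp in the 3' UTR of dnj-20, had a signal of 77.0, and its nearest 5' end was that of hal-3. At mxl-1 the peak at -2924 bp (signal 62.7) lay 35 bp downstream of a 5' end of pgap-1. A second hlh-27 peak, at -4059 bp (signal 72.7), was intergenic, with its nearest 5' end that of ins-13. A further hlh-11 peak, at -4449 bp (signal 69.5), lay in a coding exon of F58A4.6. The peaks at -4597 bp from mdl-1 (signal 65.9) and -2874 bp from hlh-13 (signal 59.5) were intergenic. Their nearest 5' ends were those of R03E9.2, for the mdl-1 site, and F48D6.4, for the hlh-13 site. Both were in neither replicate's own thresholded list, and the same held for the mxl-1 peak and the weaker hlh-6 peaks. The hlh-6 peak at -3196 bp, the hlh-27 peak at -4059 bp and the hlh-11 peak at -4449 bp were in that of replicate 1 only. The median distance from a 5' end to the nearest conservative summit was 11076.5 bp over the 40 bHLH genes and 18093 bp over all genes.

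**Figure D4:**
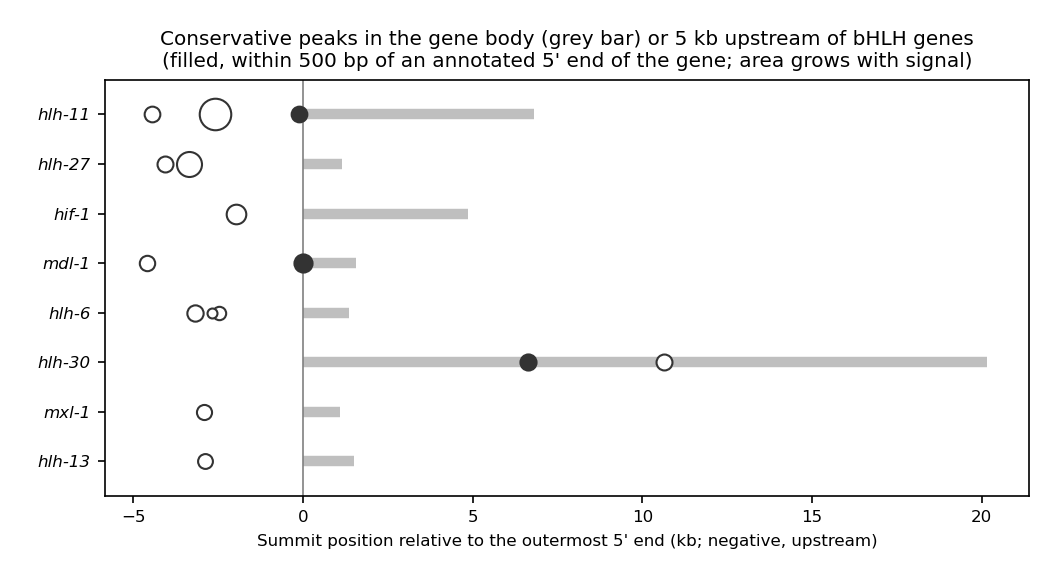
Conservative peaks in the gene body (grey bars) or within 5 kb upstream of the 8 bHLH genes that had any, in kb from the outermost 5' end; filled symbols lie within 500 bp of an annotated 5' end of the gene and the area grows with the signal. The largest symbol, upstream of hlh-11, has a signal of 357, and the hlh-30 peaks lie inside the gene.

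In windows of 280 bp around the strongest candidates of the 17 bHLH genes, CACGTG was present in 3 (17.6%), those of mdl-1, mml-1 and hlh-1, against 6.33% of candidate regions outside the conservative list and 7.14% of conservative peaks. CACGCG was present in 5 (29.4%), hlh-30 among them, against 4.91% of those regions and 13.2% of conservative peaks. CACNAG, the other site form of Hes type factors, was present in 2 (11.8%), against 30.3% and 31.5%. GCGTG was present in 7 (41.2%), against 19.4% and 36.7%, and ACGTG in 6 (35.3%), against 26.2% and 27%. Any E-box was present in 9 (52.9%), against 68.8% and 64.0%. The 17 windows include the 3 peaks. With 17 windows, a change of 1 moves such a share by several percentage points, and no test was made.

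In the promoters of the family, taken as 250 bp before to 50 bp after the outermost 5' end, the same motifs were counted. CACGTG was present in 2 of 40 promoters (5.00%), those of mdl-1 and ngn-1, against 5.82% of all promoters. Any E-box was present in 28 of 40 (70.0%), against 69.4%. ACGTG was present in 6 of 40 (15%), against 27.6%, GCGTG in 8 of 40 (20.0%), against 19.1%, CACGCG in 2 of 40 (5.00%), against 4.80%, and CACNAG in 11 of 40 (27.5%), against 25.2%. Both strands were searched, CACGTG counts within CANNTG and ACGTG, and GCGTG overlaps CACGCG read on the other strand.

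Partners, regulators and targets of these factors were read from a list of 40 genes picked by name here. It had 4 groups of 10: hypoxia signalling, SREBP and fatty acid synthesis, HLH-30 with TORC1 and autophagy, and other regulators. A conservative peak lay at 0 of 40, against 7.05% of all genes, and a candidate at 30 of 40, against 44.8% of all genes. No test was made of either count, and the number of annotated 5' ends of these genes was not compared with that of all genes. The strongest candidates, chosen after their values were seen, were at atg-18, an autophagy gene (percentile 95.4, IDR 0.0646), the elongin gene elb-1 (95.2, IDR 0.0105), the nuclear receptor gene nhr-49 (94.9, IDR 0.0202) and lgg-1, the worm Atg8 gene (94.2, IDR 0.0107). The thresholded list of replicate 1 held peaks at atg-18 and nhr-49, that of replicate 2 held none at these 40 genes, and the other list of the series held one at elb-1. As examples from the hypoxia group, the HIF-1 hydroxylase gene egl-9 had a percentile of 83.7, and vhl-1, which marks HIF-1 for degradation, one of 20.4. The tagged gene rcor-1 itself had a peak at -425 bp with a percentile of 93.9, below those of the 3 bHLH peaks. The IDR of the rcor-1 peak was 0.00745 between replicates. It was 0.0490 in replicate 1 and 0.0616 in replicate 2, so neither replicate's own thresholded list held this peak.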

How the data were processed

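ChIP-seq peak lists of 2 biological replicates were analysed, each replicate with a thresholded and a ranked list, beside 2 lists of each kind for the whole series. Coordinates are on ce11 and the lists come from an irreproducible discovery rate (IDR) analysis, per the labels and file notes. No aligner or peak caller is named in the sources used here. Each peak's signal is the authors' own measure, and its unit is left undefined in the deposited notes. Summits are the authors' deposited offsets. The ranked lists give the −log10 of the IDR, as deposited by the authors. The ranked list made between replicates held 45081 nuclear regions and the conservative list 2324. The lists hold no read counts, so depth is unknown.

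Genes were those of Ensembl release 115 (WBcel235, the same assembly as ce11), and every region end lay within the reference chromosomes. A gene had a peak if a summit lay within 500 bp of any annotated transcript start. The percentile of a signal was its rank among all regions of its list. Wilson intervals (95%) cover counting error only. With 1 group and no control samples analysed, no test between groups was made. Named genes were all genes of the Myc-Max, PAS and proneural classes, those with a peak in any thresholded list and up to 5 others with the highest percentile (3 had one). The remaining genes are named to account for all 40. The members and lists were chosen with earlier results of these data known. Analyses used Python 3.11.15 and pandas 2.3.3, and the window and motif searches were checked on made data.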

Additional observations from a re-analysis of the deposited data

How the results depend on the processing

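The count of 3 genes with a peak within 500 bp was unchanged in the other list of the series, with windows of 200 bp or of 1000 bp upstream to 100 bp downstream, with the nearest 5' end only, without peaks at tRNA genes and when regions rather than summits had to meet the window. It was 2 with the outermost 5' end only, where hlh-30 dropped out, and 1 with peaks above the median signal. With ranked regions of an IDR of 0.001 or less it was also 1. In the lists of single replicates it was 1 to 2 (1 without replicate 2). Over the gene body and 5 kb upstream, a window added after seeing the data, it was 8, with 1 proneural, 2 Myc-Max type and 1 PAS type gene in place of 0, 1 and 0. With the Myc-Max type widened to all 8 leucine zipper genes, 3 had a peak, and with the proneural class widened to 18 genes, 0 had one, beside 7.05% of all genes. The first widening added hlh-30 and hlh-11, whose peaks were already known. Both widened counts were thus set by the 3 peaks already listed and are no separate support. No difference between the classes was tested. The count of genes with a candidate fell to 11 with a window of 200 bp and was 14 to 18 in the other settings, 14 without replicate 1 and 15 without replicate 2. Percentiles of 17 named genes were recomputed in 54 cases, of which 32 moved by more than the spread between replicates or had a value in fewer than 2 replicates. Unknown depth, and a named control experiment that was not analysed here, limit what weak candidates can show.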
